A study of Citrus trifoliata and Citrus junos with 20 samples.

Results

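The response of trifoliate orange roots (Poncirus trifoliata, abbreviated Pt) to strong alkalinity was examined at the level of microRNAs (miRNAs). Pt is a citrus rootstock that is sensitive to alkaline stress, and the comparison sets roots grown in nutrient solution at pH 9.5 against roots grown at pH 6.5, the normal condition. All 100 miRNAs counted in the series were taken, 49 known and 51 predicted, and a predicted miRNA that is listed with 4 hairpins, csi-miRN52, was counted once. The 6 libraries compared, 3 at each pH, belong to a set of 18 that also holds Pt at pH 8.0 and the tolerant rootstock Ziyang xiangcheng (Citrus junos, Cj) at the same 3 pH values. Both groups were seedlings of Pt kept for 8 weeks in hydroponic culture, they differed by label only in the pH of the solution, and each library was made from the roots of 3 plants, pooled. No source used here states that the pools of a group stood in separate vessels, so the p-values below measure the spread between these pools. No marker of a tissue is among the miRNAs, and the label root was taken as given. In whole-root RNA, fewer cells that make a miRNA and less of it per cell cannot be told apart.

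Plant miRNAs are mostly 21 or 22 nucleotides (nt) long, are cut from hairpin precursors by a Dicer-like enzyme, and guide an Argonaute protein to transcripts that they match closely, which are then cleaved or kept from translation. Several families are tied to mineral nutrition in roots: MIR399 and MIR827 rise when phosphate runs short, and MIR397, MIR398 and MIR408 rise in Arabidopsis when copper runs short and act on transcripts of copper proteins. Others act on regulators of root growth, such as MIR160 on auxin response factors and MIR171 on SCL (GRAS) transcription factors. A high pH lowers the solubility of iron, phosphate and other nutrients.

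The sequences of the miRNAs on which the results turn are given first, 5′ to 3′ as deposited, with bases 2 to 8 (the seed) in capitals. Members of the phosphate families MIR399 and MIR827 are shown because MIR399 members differ by few bases.
csi-miR399a: uGCCAAAGgagauuugcccgg
csi-miR399b: uGCCAAAGgagaguugcccua
csi-miR399d: uGCCAAAGgagaguugcccug
csi-miR399e: uGCCAAAGgagaauugcccug
csi-miR827: uUAGAUGAccaucaacaaaca
The copper-related miRNAs share no seed.
csi-miR397: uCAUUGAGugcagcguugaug
csi-miR398: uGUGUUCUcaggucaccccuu
csi-miR408: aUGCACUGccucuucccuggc
The MIR477 members csi-miR473 and csi-miR477b carry the same core, moved by a single base, which moves the seed with it.
csi-miR473: aCUCUCCCucaagggcuucgc
csi-miR477b: cUCUCCCUcaagggcuucucu
In the MIR171 families, csi-miR479 and csi-miR171b come from a single deposited hairpin, as its opposite strands.
csi-miR479: uGUGAUAUugguucggcucauc
csi-miR171b: cGAGCCGAaucaauaucacuc
csi-miR171a: uUGAGCCGcgccaauaucac
The MIR160 members differ only at their 3′ end.
csi-miRN40: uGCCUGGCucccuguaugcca
csi-miRN43: uGCCUGGCucccuguaugcuu
csi-miRN45: uGCCUGGCucccuguaugccg
The abundant MIR166 members share their first 20 bases and differ beyond them.
csi-miR166a: uCGGACCAggcuucauuccccc
csi-miR166b: uCGGACCAggcuucauucccgu
csi-miR166c: uCGGACCAggcuucauuccc
csi-miR166d: uCGGACCAggcuucauucccu
The last set holds predicted miRNAs with large changes or a partner of interest.
csi-miRN28: gGUCAUGCucugacagccucacu
csi-miRN30: uUGUCGCAggagcguuggcacc
csi-miRN34: uUGUCGCCggagagauagcacc
csi-miRN49: gCUCUCUGugcuucugucauca
csi-miRN50: aCAGGAGGuggaacaaauaugaaa
csi-miRN52: uGAGCUGUuuggcuauucucgc

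Values are given in CPM, reads-per-million of listed miRNA reads after scaling by TMM, a method that sets a factor for each library from the bulk of the miRNAs. The libraries compared held 441607 to 711609 listed reads, so that 3 reads stood at 4.22 to 6.79 CPM before scaling. A shallow library, Pt pH 8.0 replicate 1 with 77255 reads, is not part of the comparison but enters the common estimate of the spread. Of 100 miRNAs, 96 passed the filter on reads and were tested. Those left untested were csi-miR399a, csi-miR530b, csi-miR3953 and csi-miR395. The filter used all 18 libraries, so a miRNA nearly absent from Pt could pass on its reads in Cj. csi-miRN04, for instance, had no reads at pH 6.5 or 9.5 in Pt and could not have been called. Shares over all tested miRNAs include such members. A miRNA is said to have risen or fallen when edgeR's quasi-likelihood test over all tested miRNAs gave a Benjamini-Hochberg adjusted p under 0.05, and log2 fold changes are given with their standard error (SE).

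Roots at pH 9.5 had more of 16 miRNAs and less of 13 than roots at pH 6.5. These 29 of 96 tested miRNAs are 30.2% (16.7% higher, 13.5% lower), and 37 (38.5%) had an unadjusted p under 0.05. The phosphate miRNAs, csi-miR398, and the predicted csi-miRN50 and csi-miRN34 rose, while csi-miR473 and csi-miR477b of the MIR477 family, csi-miR479 with csi-miR171b, csi-miR408 and csi-miR397 fell. The 3 libraries of a pH lay wholly above or below those of the other pH for 38 of 96 miRNAs (39.6%), and for 27 of the 29 called. The exceptions among the called were csi-miR399d and csi-miRN52. The miRNAs called higher took 51.1% ± 1.43 (SD, n = 3) of the listed reads at pH 6.5 and 59.5% ± 0.882 at pH 9.5, and those called lower took 5.42% ± 0.199 and 1.97% ± 0.167, values that restate the calls as shares.

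How many miRNAs rose and how many fell changed with the scaling. The TMM factors were 0.863 to 0.997 at pH 6.5 and 0.740 to 0.808 at pH 9.5. The deposited TPM values are described as reads-per-million of mapped reads, but the totals behind them lie far below the reads that the study took to the genome. With library sizes from these totals, or from the listed reads without the 5 most abundant miRNAs, 11 were higher and 20 lower. With factors from the known miRNAs 11 were higher and 19 lower. These settings moved the log2 fold changes by a median of -0.19, -0.21 and -0.19, and the median over all tested miRNAs from 0.07 to -0.08, -0.12 and -0.11. With the filter and fit on the compared groups alone, 83 miRNAs were tested, and 12 were higher and 17 lower. Of the 29, 18 were called in the same direction under each setting in which they could be tested, of 17 tried, 8 of them higher and 10 lower. Those higher were csi-miR394, csi-miR398, csi-miR399b, csi-miR399e, csi-miRN23, csi-miRN28, csi-miRN34 and csi-miRN50. Those lower were csi-miR171a, csi-miR171b, csi-miR397, csi-miR408, csi-miR473, csi-miR477b, csi-miR479, csi-miRN31, csi-miRN43 and csi-miRN49.

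**Figure D1:**
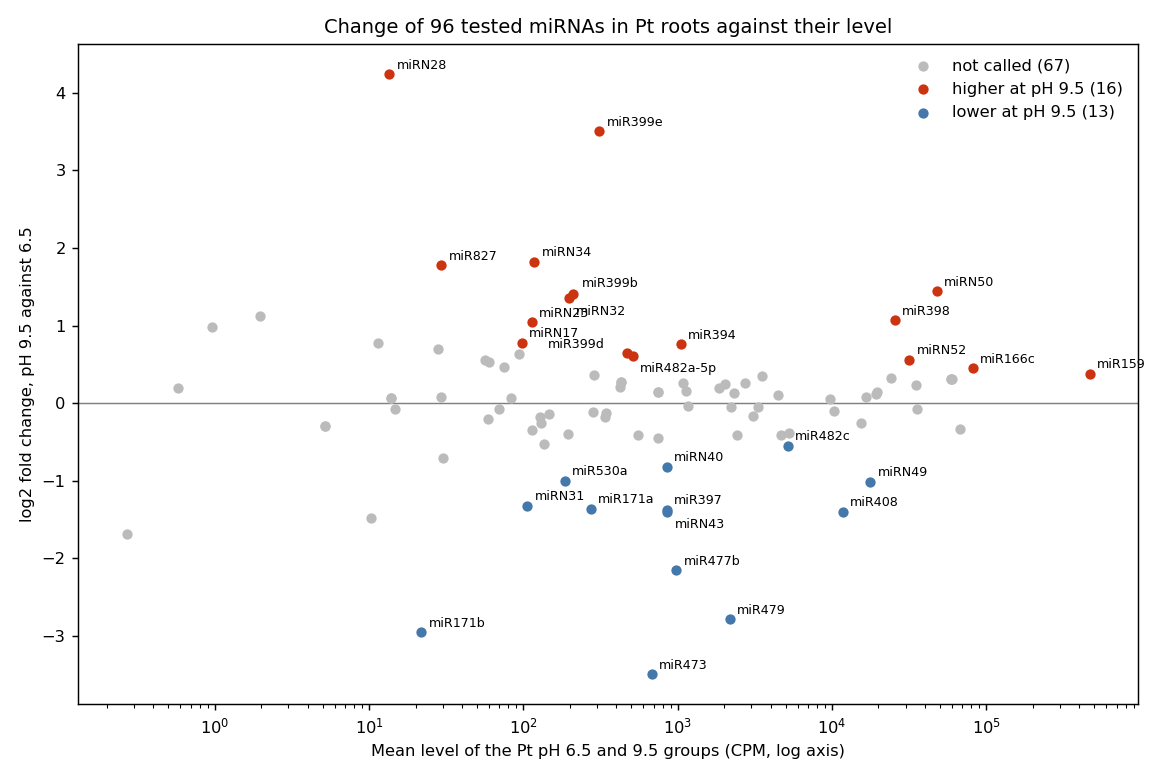
Change of each of the 96 tested miRNAs (log2 fold change, pH 9.5 against pH 6.5 in Pt, vertical axis) against its mean level (CPM, log axis). Points in red (16) were called higher and points in blue (13) lower at pH 9.5, and the largest changes lie among miRNAs of low or middle level while csi-miR159, the most abundant, changed by 0.38.

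Phosphate-related miRNAs were higher at pH 9.5. The list of phosphate and sulfate miRNAs had 4 tested members and all 4 rose, each of them a phosphate miRNA, beside 16.7% of all tested miRNAs. Their median log2 fold change was 1.59 beside 0.07 over all tested miRNAs. Under the 3 scalings named above 3 of the 4 rose, without csi-miR399d. The sulfate miRNA csi-miR395, with 22 reads at pH 6.5 and 20 at pH 9.5, was not tested (13.4 and 13.9 CPM). csi-miR399e, of a family that in Arabidopsis acts on the transcript of the ubiquitin-conjugating enzyme PHO2, had 42.9, 60.1 and 46.7 CPM in the 3 libraries at pH 6.5 and 885, 397 and 428 CPM at pH 9.5. Every library at pH 9.5 was above every library at pH 6.5, and replicate 1 at pH 9.5 was the highest. The log2 fold change was 3.50 ± 0.33, an 11.3-fold rise and the largest of those whose group at pH 6.5 held more than 2 reads.

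The other MIR399 members moved less. csi-miR399b had 131, 109 and 106 CPM at pH 6.5 and 410, 216 and 288 CPM at pH 9.5, without overlap (log2 fold change 1.40 ± 0.28, edgeR adjusted p = 0.000278). csi-miR399d had 445, 378 and 278 CPM at pH 6.5 and 820, 437 and 456 CPM at pH 9.5. Its groups overlapped, as the highest library at pH 6.5 stood above the lowest at pH 9.5, and its log2 fold change was 0.64 ± 0.24 (edgeR adjusted p = 0.0447). The call of csi-miR399d was lost when Pt pH 6.5 replicate 3 (0.48) was left out, when Pt pH 9.5 replicate 1 (0.39) was, and in 6 other settings (adjusted p up to 0.25). csi-miR399a, not tested, had no reads in the libraries at pH 6.5 and 11, 2 and 6 reads at pH 9.5. Set against 3 reads, the floor for a group without reads (counting error only), it was at least 7.67-fold higher, a bound that ran from 4.85-fold to 11.3-fold when any 1 library was left out.

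The make-up of the family was compared within libraries, where no scaling enters. csi-miR399e took 6.94%, 10.98% and 10.8% of MIR399 reads at pH 6.5, 15.5%, 20.6% and 21.8% at pH 8.0, and 41.4%, 37.7% and 35.99% at pH 9.5. csi-miR399d went the other way, from 68.5% ± 3.7 (SD, n = 3) at pH 6.5 to 39.4% ± 1.8 at pH 9.5, while csi-miR399b took between 19.2% and 24.6% at these pH values, with overlapping groups. csi-miR399d and csi-miR399e are identical at 20 of 21 positions, and how reads with an error or a mismatch were shared out between them was not tested. Summed as 1 miRNA, the MIR399 members had 618, 547 and 431 CPM at pH 6.5 and 2135, 1054 and 1190 CPM at pH 9.5 (log2 fold change 1.46 ± 0.23, edgeR adjusted p = 1.82e-05). Leaving out any 1 library kept this value between 1.07 and 1.58.

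csi-miR827, whose family acts on SPX-domain genes of phosphate transport and homeostasis, was rare. It had 17.2, 4.75 and 17.7 CPM at pH 6.5 and 50.3, 34.2 and 52.0 CPM at pH 9.5, from 22 and 63 reads. The groups did not overlap, and the log2 fold change was 1.78 ± 0.57 (edgeR adjusted p = 0.0191). At pH 8.0 it had 12 reads, in which Pt pH 8.0 replicate 3 held 1, and no change from pH 6.5 was called. The call at pH 9.5 was lost without Pt pH 6.5 replicate 2 (log2 fold change 1.45, adjusted p = 0.0647) and with DESeq2 (adjusted p = 0.0773).

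The copper-related miRNAs parted ways, 1 of 3 rising and 2 falling, beside 16.7% higher and 13.5% lower over all tested miRNAs. csi-miR398, whose family acts on Cu/Zn superoxide dismutase transcripts, had 17462, 13026 and 18804 CPM at pH 6.5 and 36359, 31663 and 35310 CPM at pH 9.5. csi-miR408, whose family acts on plantacyanin-type and laccase transcripts, had 13784, 17641 and 19532 CPM at pH 6.5 and 5576, 6174 and 7632 CPM at pH 9.5. csi-miR397, whose family acts on laccases, had 1091, 1158 and 1429 CPM at pH 6.5 and 509, 430 and 480 CPM at pH 9.5. In none of the 3 did the groups overlap, and the log2 fold changes were 1.07 ± 0.19, -1.40 ± 0.18 and -1.37 ± 0.21 (edgeR adjusted p = 4.9e-05, 5.85e-07 and 8.84e-06). These directions and calls held in all 17 other settings.

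The 3 miRNAs were called at different steps of the pH series. At pH 8.0 csi-miR398 already stood at 22583, 29522 and 32144 CPM, all above pH 6.5 (log2 fold change 0.77 ± 0.19, edgeR adjusted p = 0.00479). csi-miR408 and csi-miR397 were not called at pH 8.0, with 0.14 ± 0.18 and 0.24 ± 0.21, and fell between pH 8.0 and pH 9.5, by 1.54 and 1.61 on the log2 scale (edgeR adjusted p = 2.53e-07 and 2.05e-06). Within libraries there were 1.27, 0.738 and 0.963 reads of csi-miR398 per read of csi-miR408 at pH 6.5, 1.25, 1.53 and 1.70 at pH 8.0, and 6.52, 5.13 and 4.63 at pH 9.5. The ratio of csi-miR397 to csi-miR408 had overlapping groups, 0.0726 ± 0.00676 (SD, n = 3) at pH 6.5 and 0.0746 ± 0.0148 at pH 9.5. In a two-sided exact permutation test of 3 libraries against 3 no ratio can go below a p of 0.10, which the first ratio reached.

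**Figure D2:**
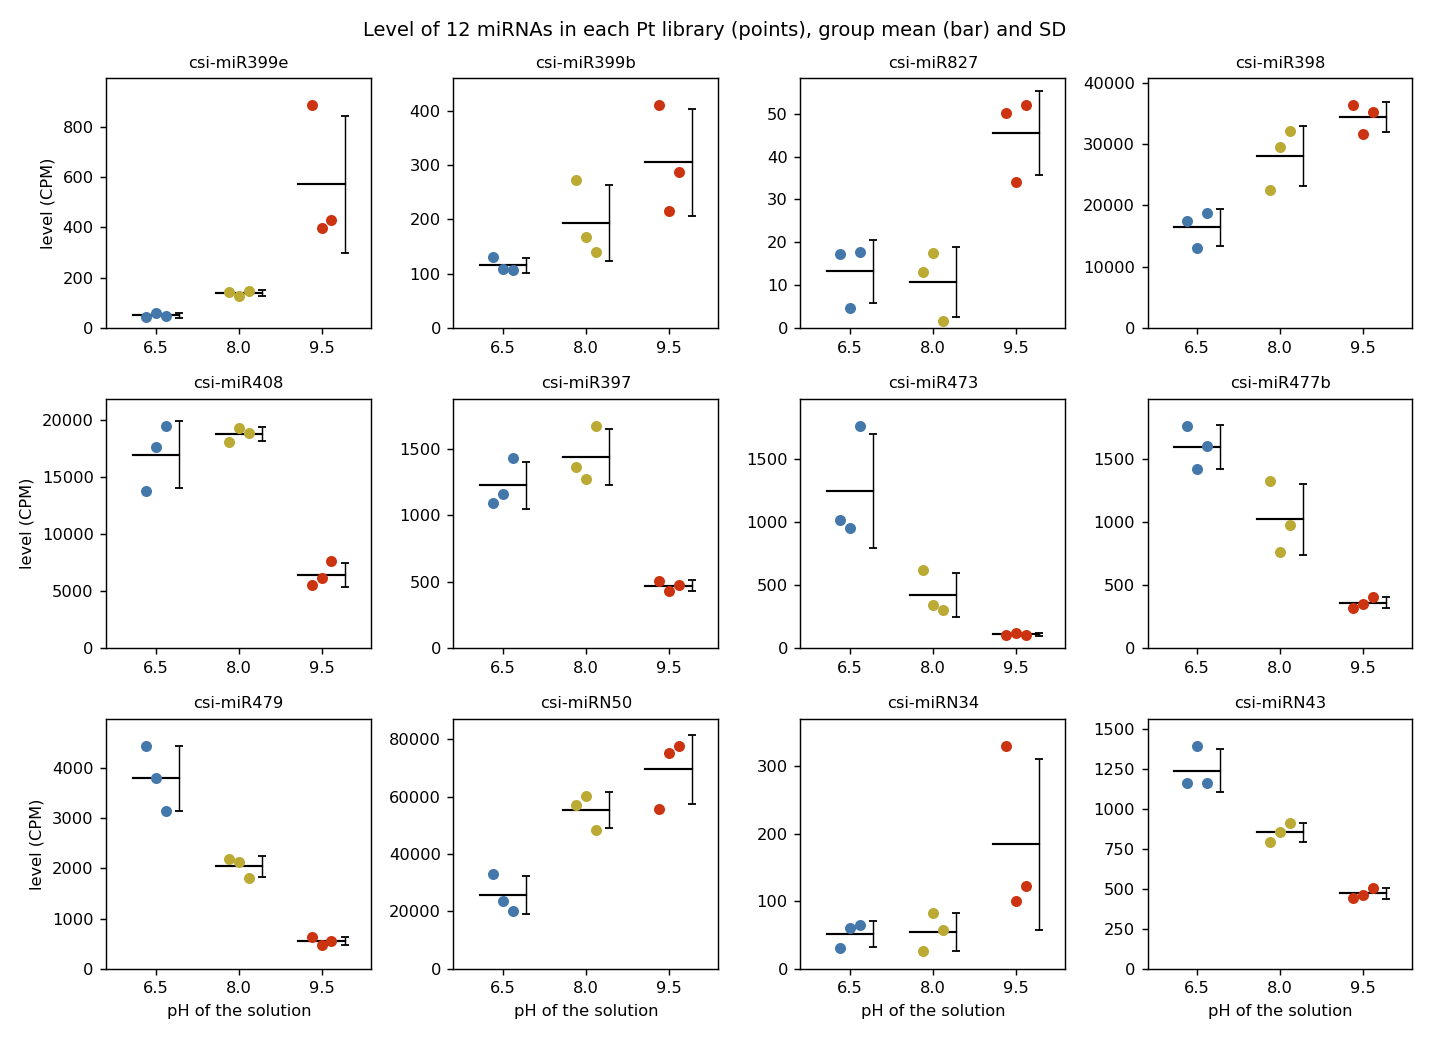
Level of 12 miRNAs (CPM, vertical axis from 0, each panel on its own scale) in the Pt libraries, 3 at each pH. Points are libraries, horizontal bars group means and vertical bars the SD, and csi-miR408 and csi-miR397 stay high at pH 8.0 while csi-miR479, csi-miR473 and csi-miR477b are already lower there.

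Both abundant MIR477 members fell, and csi-miR473 had the largest fall of all tested miRNAs. csi-miR473 had 1020, 959 and 1768 CPM at pH 6.5 and 102, 122 and 107 CPM at pH 9.5, a log2 fold change of -3.49 ± 0.28 or an 11.2-fold fall. csi-miR477b had 1765, 1419 and 1602 CPM at pH 6.5 and 322, 352 and 410 CPM at pH 9.5 (-2.15 ± 0.21). The libraries at pH 9.5 lay close together and far below those at pH 6.5 in both. How reads were shared out between these overlapping sequences was not tested.

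Both members had fallen by pH 8.0 and fell again above it. csi-miR473 had 623, 346 and 306 CPM at pH 8.0, and its log2 fold change was -1.67 up to pH 8.0 and -1.82 from there to pH 9.5 (edgeR adjusted p = 5.68e-05 and 1.92e-05). csi-miR477b went by -0.68 and then -1.46 (edgeR adjusted p = 0.0303 and 5.4e-06). The ratio of csi-miR473 to csi-miR477b reads was 0.578, 0.676 and 1.103 at pH 6.5 and 0.318, 0.347 and 0.261 at pH 9.5, without overlap. The third tested member of the list, csi-miRN27 of 24 nt, had a single read in the 6 libraries.

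csi-miR479 fell with the lowest adjusted p of the comparison. It had 4430, 3798 and 3134 CPM at pH 6.5, 2182, 2128 and 1800 CPM at pH 8.0, and 639, 469 and 548 CPM at pH 9.5. The 3 pH groups did not overlap, and the log2 fold change from pH 6.5 to pH 9.5 was -2.78 ± 0.18 (edgeR adjusted p = 1.78e-12). The opposite strand of its hairpin, csi-miR171b, of the kind that acts on SCL transcripts, had 36.5, 23.7 and 57.9 CPM at pH 6.5 and 5.59, 7.19 and 0 CPM at pH 9.5, from 68 and 7 reads. It fell by 2.95 on the log2 scale (SE 0.52, edgeR adjusted p = 5.24e-05). Both strands of this hairpin fell, and the log2 ratio of csi-miR479 to csi-miR171b, 6.63 at pH 6.5 and 6.99 at pH 9.5, had overlapping groups. csi-miR171a, from another hairpin and of the same kind, fell from 392 ± 65.9 to 155 ± 47.9 CPM (-1.36 ± 0.23), and its deposited strand partner csi-miRN05, with 62 and 30 reads, was not called (-0.71 ± 0.59).

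The balance between strands was also compared in other hairpins. For 11 pairs of strands, taken from a shared hairpin or a match to the deposited star sequence (the strand opposite to the mature miRNA), the ratio of the strands was compared within libraries after adding 0.5 reads. The groups did not overlap in 4 pairs, those of csi-miRN32, csi-miR482a-5p, csi-miRN28 and, with neither strand called, csi-miRN19 with csi-miR390 (-0.41). Each of the 4 had a two-sided exact permutation p of 0.1, the smallest possible here. The levels of single miRNAs were without overlap in 39.6% of those tested, and the 4 of 11 pairs are near that share. csi-miRN32, the partner of csi-miR396b, rose from 223, 44.3 and 72.4 CPM to 291, 259 and 297 CPM (log2 fold change 1.35 ± 0.4, edgeR adjusted p = 0.0119), while csi-miR396b itself, a regulator of growth-regulating factors, was not called (0.23 ± 0.17). The change of csi-miRN32 was 2.26 without Pt pH 6.5 replicate 1, its high library, and the call was lost without Pt pH 6.5 replicate 3 (1.11, adjusted p = 0.0752). csi-miR482a-5p rose (0.61 ± 0.22, edgeR adjusted p = 0.0331) while csi-miR482a-3p, the strand of the MIR482 family that acts on NBS-LRR resistance genes, was not called (-0.10 ± 0.16).

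csi-miRN28 and csi-miR167b were paired on a star match that is not complete. The deposited star of csi-miRN28 differs from csi-miR167b at the 3′ end, and csi-miR167b does not lie in that deposited hairpin. The ratio of the pair is therefore not shown to be that of strands of a single hairpin. csi-miRN28, from a hairpin on the minus strand of C. sinensis chromosome 5 (positions 32493947 to 32494196, release of the genome not given in the sources used here), had 2, 0 and 0 reads at pH 6.5 and 9, 25 and 5 reads at pH 9.5. The call rested on these few reads (edgeR adjusted p = 0.00028). The ratio of the scaled sums was 23.6 with an exact 95% interval from 6.11 to 202, which covers counting error only. It was at least 11.5 against the floor without Pt pH 6.5 replicate 1, 14.9 or 15.1 without another library at pH 6.5, and 13.9 without Pt pH 9.5 replicate 2. csi-miR167b, whose family acts on auxin response factors, had 5087, 5709 and 5293 CPM at pH 6.5 and 3927, 3919 and 4260 CPM at pH 9.5, without overlap but not called (-0.41 ± 0.17, edgeR adjusted p = 0.076). It was called lower in 8 of the 17 other settings, and in none of the 7 that leave out a library.

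The most abundant miRNA with a large rise was csi-miRN50, of 24 nt and assigned to MIR9560. Its hairpin is placed on the minus strand of chromosome 3, at positions 18988847 to 18989096. It had 32943, 23668 and 20277 CPM at pH 6.5 and 55718, 75049 and 77631 CPM at pH 9.5 (log2 fold change 1.44 ± 0.2, edgeR adjusted p = 1.47e-06). Every library at pH 9.5 was above every library at pH 6.5. At pH 8.0 it already had 57230, 60372 and 48431 CPM (1.11 ± 0.19), and the further step to pH 9.5 was not called (0.33, edgeR adjusted p = 0.26). csi-miRN52, of 22 nt, was close to csi-miRN50 in level at pH 6.5 and 8.0 and lower at pH 9.5. It stood at 25590 ± 3506 CPM (SD, n = 3) at pH 6.5, rose to 53251 ± 637 CPM at pH 8.0 and fell back to 37813 ± 8827 CPM at pH 9.5, where its libraries overlapped those at pH 6.5. It was the only miRNA of the 29 called in opposite directions over the 2 steps, by 1.06 and then -0.49 (edgeR adjusted p = 2.63e-05 and 0.0222). Its call at pH 9.5 was lost without Pt pH 9.5 replicate 2 (0.48, adjusted p = 0.0534) and with factors from the known miRNAs.

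The share of predicted miRNAs of 24 nt turned on csi-miRN50. Together they took 4.61%, 3.79% and 3.44% of the listed reads at pH 6.5 and 5.73%, 7.12% and 6.91% at pH 9.5, a difference of 2.64 percentage points (two-sided exact permutation p = 0.1, the smallest that 3 against 3 can give). Without csi-miRN50 they took 1.77%, 1.51% and 1.42% at pH 6.5 and 1.23%, 1.26% and 1.16% at pH 9.5, so that the share of the others was lower, without overlap of the groups. Of these others csi-miRN47 went from 0.557% to 0.353%, and the identical csi-miRN14 and csi-miRN15 were both summed. The share of all miRNAs not called or not tested was lower too, 43.5% at pH 6.5 and 38.5% at pH 9.5. Of the 22 predicted miRNAs of 24 nt tested, csi-miRN50 was the 1 that rose and none fell, with a median log2 fold change of -0.02. Some of the 22 were nearly absent from these libraries, such as csi-miRN04 and csi-miRN27, and could not have been called.

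csi-miRN34 and csi-miRN23 rose as well. csi-miRN34 of the MIR3627 family had 30.1, 60.1 and 64.4 CPM at pH 6.5 and 330, 101 and 122 CPM at pH 9.5. No library overlapped (log2 fold change 1.82 ± 0.39, edgeR adjusted p = 0.000555), but replicate 1 at pH 9.5 stood apart, and without it the change was 1.15 (adjusted p = 0.0209). Its hairpin lies on the minus strand of chromosome 6 at positions 19944457 to 19944706, and that of the related csi-miRN30 lies 3734 bases away on the plus strand, at 19948441 to 19948690. csi-miRN30 had 1 read in the libraries at each of the 3 pH values, so no change was detectable at this depth. csi-miRN23, without an assigned family, went from 74.3 ± 12.5 to 153 ± 10.5 CPM (1.04 ± 0.27, edgeR adjusted p = 0.00369).

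In the auxin list 1 of 11 tested miRNAs rose, csi-miRN28, and 2 fell, with a median of -0.17. These 3 of 11 are a share near the 30.2% called over all tested miRNAs. The list follows the assigned family, so it holds csi-miRN28, csi-miRN18 and csi-miRN19. Their seeds differ from those of csi-miR167b, csi-miR393 and csi-miR390. Both miRNAs of the list that fell belong to MIR160. csi-miRN43 went from 1241 ± 134 to 472 ± 33 CPM (-1.40 ± 0.2) and csi-miRN40 from 1082 ± 265 to 616 ± 68.5 CPM (-0.82 ± 0.24, edgeR adjusted p = 0.012). The most abundant MIR160 member, csi-miRN45, with 3267 ± 649 and 2896 ± 136 CPM, was not called (-0.17 ± 0.2). The reads of csi-miRN43 per read of csi-miRN45 were 0.390 ± 0.0883 (SD, n = 3) at pH 6.5 and 0.163 ± 0.0157 at pH 9.5. The call of csi-miRN40 was lost when Pt pH 6.5 replicate 3, or replicate 1 or 2 at pH 9.5, was left out (log2 fold change -0.60, -0.77 and -0.73, adjusted p up to 0.105).

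Among the families that act on growth regulators 3 of 19 tested miRNAs rose and 3 fell, but the scalings with TPM totals, without the 5 most abundant miRNAs and from the known miRNAs gave 1 and 5, 1 and 5, and 2 and 6. The 6 of 19 are likewise near the 30.2% over all tested miRNAs. Those that rose were csi-miR166c, csi-miR159 and csi-miRN32, which is the strand opposite to csi-miR396b and has another seed. Those that fell were csi-miR171a, csi-miR171b and csi-miR479. csi-miR159, a regulator of GAMYB-type transcription factors, had 431092, 418586 and 366306 CPM at pH 6.5 and 522072, 511985 and 548683 CPM at pH 9.5 (0.38 ± 0.14, edgeR adjusted p = 0.0331). As a share of listed reads it was 37.2%, 40.4% and 36.5% at pH 6.5 and 42.2%, 40.02% and 40.6% at pH 9.5, where the groups overlapped. 5 other settings ended its call, as did leaving out Pt pH 6.5 replicate 1 or 3 or Pt pH 9.5 replicate 2 or 3 (log2 fold change 0.31 to 0.42, adjusted p up to 0.151).

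csi-miRN49 fell while csi-miR156, the regulator of SPL transcription factors in the same assigned family, was not called. csi-miRN49 had 31762, 24943 and 14310 CPM at pH 6.5 and 13704, 10571 and 10931 CPM at pH 9.5 (-1.01 ± 0.2, edgeR adjusted p = 0.000194), and csi-miR156 had 18476 ± 1126 and 20403 ± 1051 CPM (0.14 ± 0.17). The deposited star of csi-miRN49, gugacagaagauagagagcgc, shares from its base 2 a run of 10 bases with the start of csi-miR156, so the strand deposited opposite to csi-miRN49 resembles csi-miR156. The hairpin is placed on the minus strand of chromosome 7, at positions 24974091 to 24974340.

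The remaining calls were smaller or rested on fewer reads. csi-miR394, whose family acts on an F-box transcript in Arabidopsis, rose from 777 ± 144 to 1311 ± 248 CPM (0.76 ± 0.2, edgeR adjusted p = 0.00518). csi-miRN17, assigned to MIR1515, rose from 71.8 ± 4.67 to 123 ± 39.4 CPM (0.78 ± 0.27, edgeR adjusted p = 0.0278). The call was lost on leaving out Pt pH 6.5 replicate 1 or 3 or else Pt pH 9.5 replicate 2 (0.48 to 0.83, adjusted p up to 0.248) and in 5 other settings. The family acts on a Dicer-like transcript in legumes, but csi-miRN17 matches csi-miR1515 at only 12 of 21 positions and has another seed. csi-miR1515 itself was not called (0.53 ± 0.41, edgeR adjusted p = 0.363). csi-miRN17 was the only call among 8 miRNAs listed for the small RNA machinery, beside 30.2% called over all tested miRNAs. The 8 are not independent, as csi-miRN14 and csi-miRN15 are identical and csi-miR162-3p and csi-miR162-5p are opposite strands. csi-miRN02, csi-miRN14 and csi-miRN15 are predicted miRNAs of 24 nt, listed by their assigned family only. With the scalings from TPM totals, without the 5 most abundant miRNAs or from the known miRNAs none of the 8 was called. The call of csi-miR482a-5p ended in 4 other settings and on leaving out Pt pH 6.5 replicate 1 or 2 or Pt pH 9.5 replicate 1 or 2 (0.57 to 0.64, adjusted p up to 0.102).

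Of those that fell, csi-miR482c, of a family that acts on NBS-LRR resistance genes, went from 6158 ± 1043 to 4213 ± 316 CPM (-0.55 ± 0.17, edgeR adjusted p = 0.0136). It lost its call on leaving out Pt pH 6.5 replicate 3 or else Pt pH 9.5 replicate 1 or 3 (-0.48 to -0.41, adjusted p up to 0.144). csi-miR530a stood at 247 ± 74.5 CPM at pH 6.5 and 124 ± 14.2 CPM at pH 9.5 (-1.0 ± 0.33, edgeR adjusted p = 0.0201). It lost its call on leaving out Pt pH 6.5 replicate 3 or else Pt pH 9.5 replicate 1 or 2 (-0.95 to -0.72, adjusted p up to 0.151). csi-miRN31, without an assigned family, went from 153 ± 32.5 to 59.8 ± 12.1 CPM (-1.32 ± 0.31, edgeR adjusted p = 0.00163). In the MIR482 list as a whole 1 of 7 tested miRNAs rose, the strand csi-miR482a-5p, and 1 fell. In the 3 scalings named above 0 rose and 2 fell. These 2 of 7 are near the 30.2% over all tested miRNAs. In the SPL list csi-miRN49 was the 1 of 5 that fell and none rose. Its seed differs from that of csi-miR156, and the list also holds csi-miRN07 and csi-miRN08, which are identical in sequence. None of 3 tested citrus-type miRNAs was called. Of 29 predicted miRNAs in no other list 3 rose and 1 fell, against 16.7% higher and 13.5% lower over all tested. With library sizes from the TPM totals 1 of the citrus-type miRNAs and 3 of the predicted ones fell.

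Among the abundant MIR166 miRNAs, which act on class III HD-ZIP transcription factors, the ratios of csi-miR166d and csi-miR166b to csi-miR166c were lower at pH 9.5. The whole of csi-miR166c forms the start of the longer members, and how reads were shared out between them was not tested. csi-miR166c, the shortest, had 73928, 62356 and 71210 CPM at pH 6.5 and 77180, 100873 and 104832 CPM at pH 9.5 (0.45 ± 0.15, edgeR adjusted p = 0.0201). Scaling to TPM totals, or with the 5 most abundant miRNAs left out, ended its call, as did leaving out Pt pH 6.5 replicate 1 or 2 or Pt pH 9.5 replicate 2 or 3 (0.41 to 0.51, adjusted p up to 0.118). csi-miR166d, with an added U, had 76395, 74045 and 74958 CPM at pH 6.5 and 53653, 57871 and 67698 CPM at pH 9.5, lower in every library but not called (-0.33 ± 0.16, edgeR adjusted p = 0.124). It was called lower in 4 of the 17 other settings, the 3 scalings named above and the fit of the compared groups alone (-0.55 to -0.43, adjusted p down to 0.00142). There were 1.03, 1.19 and 1.05 reads of csi-miR166d per read of csi-miR166c at pH 6.5, 0.791, 0.841 and 1.00 at pH 8.0, and 0.695, 0.574 and 0.646 at pH 9.5, a ratio picked after its values were seen. The ratio of csi-miR166b to csi-miR166c was lower as well (0.532 ± 0.0569 and 0.376 ± 0.0528), while that of csi-miR166a to csi-miR166c overlapped between the groups.

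csi-miR166a and csi-miR166e-3p, its 21-nt beginning, are listed with the same reads in all but 1 library, where they differ by 1 read, so the same reads stand under both names. They stood at 52732 ± 5170 and 65586 ± 5824 CPM and were not called (0.31 ± 0.15, edgeR adjusted p = 0.119). The other abundant miRNAs without a call were csi-miR166b (-0.07 ± 0.15) and csi-miRN51 of the MIR482 family (0.31 ± 0.15), with edgeR adjusted p = 0.767 and 0.124.

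**Figure D3:**
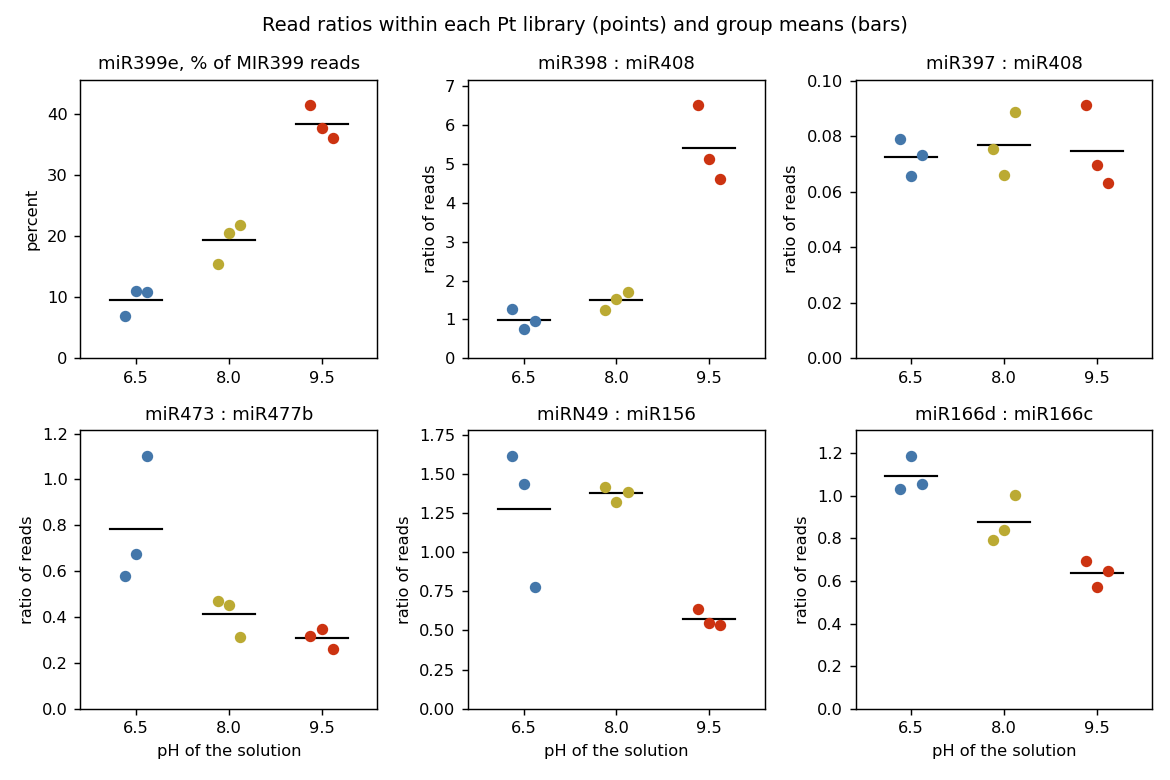
Ratios of reads within each Pt library, by the pH of the solution (vertical axes from 0, a percent in the first panel), with points for libraries and bars for group means. csi-miR399e takes 35.99% to 41.4% of MIR399 reads at pH 9.5 against 6.94% to 10.98% at pH 6.5, the ratio of csi-miR397 to csi-miR408 overlaps between the groups, and the ratio of csi-miR166d to csi-miR166c goes from 1.03 to 1.19 at pH 6.5 to 0.574 to 0.695 at pH 9.5.

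The libraries at pH 8.0 give the step at which each of the 29 miRNAs was called. The contrasts share libraries, so their values are only set side by side. Of 16 that rose between pH 6.5 and 9.5, csi-miR398, csi-miR399e, csi-miRN28, csi-miRN50 and csi-miRN52 were called higher at pH 8.0 against 6.5, 5 in all, where 5.21% of all tested miRNAs were. The 5 called higher at pH 9.5 against 8.0 were csi-miR399e, csi-miR827, csi-miRN23, csi-miRN32 and csi-miRN34, beside 6.25% of all tested. Of 13 that fell, 4 were called lower at the first step (csi-miR171b, csi-miR473, csi-miR477b and csi-miR479), beside 4.17% of all tested, and 8 at the second, beside 11.5%. Over all tested miRNAs 9 (9.38%) were called at the first step and 17 (17.7%) at the second. Called at both steps in the same direction were csi-miR399e, csi-miR473, csi-miR477b and csi-miR479. The count of the first step was 22 with library sizes from the TPM totals and 18 without the 5 most abundant miRNAs, with 5 higher in both and 17 and 13 lower, while factors from the known miRNAs gave 4 higher and 6 lower. For the second step, 6 higher and 11 lower, the same scalings gave 13 and 10, and 11 and 11, DESeq2 size factors gave 11 and 11, and factors from the known miRNAs 2 and 12. The count of the second was 11 without Pt pH 8.0 replicate 2, 9 without Pt pH 8.0 replicate 3 and 8 without Pt pH 9.5 replicate 1.

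In the tolerant rootstock Cj the same pH contrast called 27 of 96 miRNAs (28.1%), 12 of the 96 higher and 15 lower. Of the 16 that rose in Pt, 5 were called higher in Cj, 2 lower and 9 not called, and of the 13 that fell 8 were called lower, none higher and 5 not called. Whether the responses differ was tested as a difference of the log2 fold changes, which called 18 of 96 miRNAs (18.8%), 11 of them among the 29. Of the 18, 6 were higher and 12 lower in Pt, against 5 and 22 both with TPM totals and without the 5 most abundant miRNAs. The count was 29 without Pt pH 6.5 replicate 1, with 13 higher and 16 lower. The largest was csi-miRN34, which rose in Pt and fell in Cj (-2.21), a difference of 4.03 ± 0.55 (edgeR adjusted p = 3.35e-06). csi-miRN23 was likewise higher in Pt and lower in Cj (-1.60), a difference of 2.65 ± 0.46.

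Several responses were smaller on the log2 scale in Pt than in Cj or not called in it. csi-miRN52 rose by 2.98 in Cj and 0.56 in Pt (difference -2.41 ± 0.22), csi-miRN50 by 2.97 and 1.44, and csi-miR398 by 2.17 and 1.07. All of these started higher in Pt. Mean csi-miR398 was 16431 CPM in Pt and 3056 in Cj at pH 6.5, and 34444 and 13721 at pH 9.5. In Cj csi-miRN50 had 3763, 4257 and 5160 CPM at pH 6.5 and 36536, 34881 and 31585 at pH 9.5, below every Pt library of that pH. csi-miRN52 had 4065, 3816 and 4075 CPM in Cj at pH 6.5, and at pH 9.5 the rootstocks overlapped. csi-miRN20 of the MIR396 family, with 70.3 ± 20.2 CPM at pH 6.5 and 68.9 ± 22.6 CPM at pH 9.5 in Pt, was not called there (-0.08 ± 0.33) and rose by 2.34 in Cj (difference -2.41 ± 0.52). csi-miR479 (-0.62 in Cj, difference -2.16 ± 0.24) and csi-miR473 (-1.56 in Cj) fell in both and more in Pt. csi-miR397 and csi-miR408 fell in Pt and were not called in Cj (0.01 ± 0.21 and -0.44 ± 0.18, edgeR adjusted p = 0.968 and 0.0624). For csi-miR399e the difference was 0.83 ± 0.55 and for csi-miR477b -0.67 ± 0.28, neither called, which does not show that the responses were alike.

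**Figure D4:**
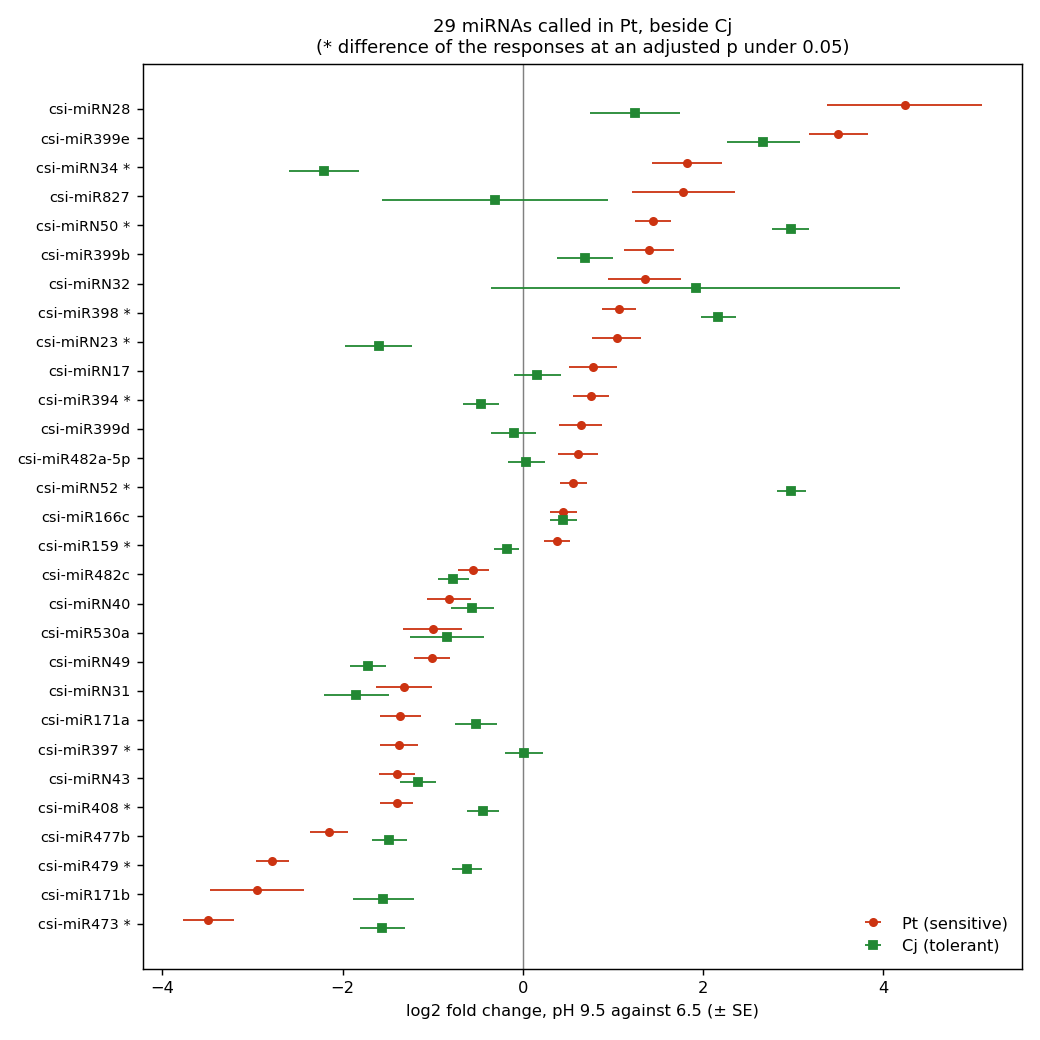
Log2 fold change from pH 6.5 to pH 9.5 with its SE for the 29 miRNAs called in Pt (circles), beside the same contrast in Cj (squares). An asterisk marks the 11 miRNAs whose responses differ at an adjusted p under 0.05, and csi-miRN34 and csi-miRN23 lie on opposite sides of 0 in the 2 rootstocks.

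The called miRNAs were also described by origin, length, sequence and level, of which level bears on the test's precision. Over all tested miRNAs 30.2% were called, 16.7% higher and 13.5% lower. Of the known miRNAs 18 of 45 tested were called, 9 in each direction, and of the predicted 11 of 51, 7 higher and 4 lower. The predicted ones tested include some nearly absent from Pt, which lowers their share. By length, 3 of 6 tested miRNAs of 20 nt were called, 18 of 47 of 21 nt, 6 of 19 of 22 nt, 1 of 2 of 23 nt and 1 of 22 of 24 nt. A first base U was held by 18 of the 29 and by 54 of the 96 tested. The 29 carried 26 different seeds, and no seed was shared by a miRNA that rose and another that fell. MIR399 had 3 called members with the seed GCCAAAG and MIR160 had 2 with GCCUGGC. By level, 10 of 38 miRNAs above 1000 CPM were called, 15 of 32 between 100 and 1000 CPM, and 4 of 26 up to 100 CPM.

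**Figure D5:**
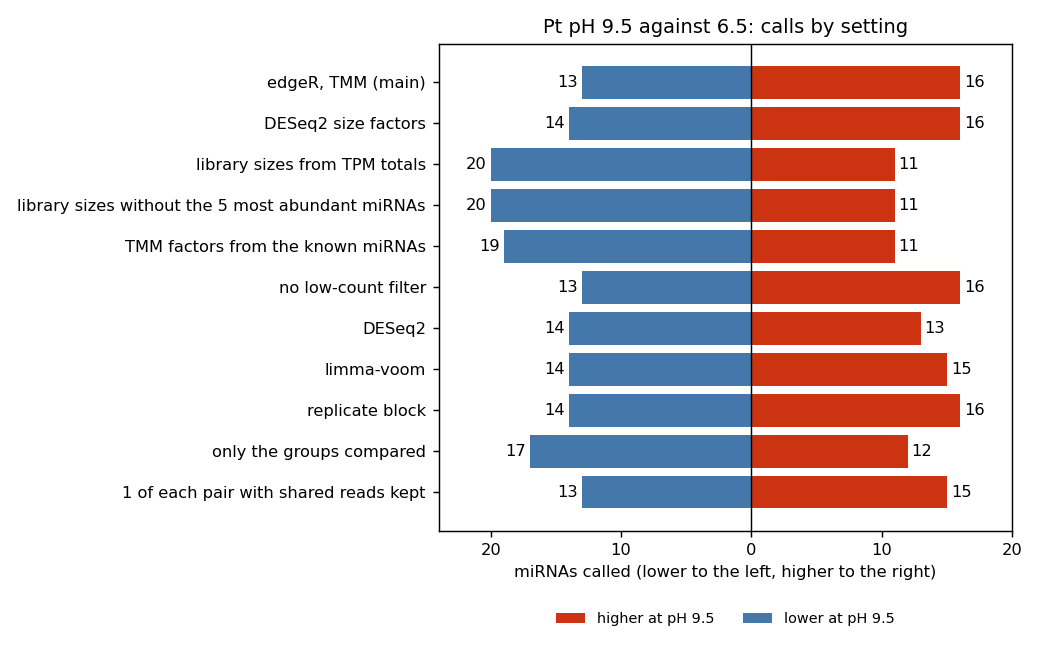
Number of miRNAs called lower (left) and higher (right) at pH 9.5 against pH 6.5 in Pt under each setting of scaling, test, filter or samples. The main setting gives 13 lower and 16 higher, and the 3 settings that scale by TPM totals, without the 5 most abundant miRNAs or by the known miRNAs give 19 or 20 lower and 11 higher.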

How the data were processed

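Small RNA libraries of roots were made with a NEBNext kit and sequenced on an Illumina instrument. The authors removed structural RNAs and repeats with Bowtie, matched reads to the Citrus sinensis genome, with no release named in the sources used here, and predicted miRNAs with miRDeep2. The deposited counts are whole reads per mature miRNA and library, without normalisation. The deposited TPM values, described as reads-per-million of mapped reads without a term for length, served only to derive library totals. These were 531097 to 862300 in the 6 libraries compared, of which the listed miRNAs held 71.8% to 83.2%. They lie far below the reads that the study took to the genome, so they do not count all of these. Which reads they count is not stated in the sources used here. A deposited miRDeep2 score per predicted precursor was not used. Of 103 lines with values 3 repeats of csi-miRN52 were dropped, and 1 line held no values and is not reported here. The degradome libraries were not analysed here.

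Counts of all 18 libraries were fitted with edgeR 4.0.16 (R 4.3.3), with a mean for each of 6 groups, TMM factors and filterByExpr (minimum count 10, minimum total 15). The study used DESeq 1.10.1 at the same threshold of 0.05, for which edgeR stands in. The study called fewer miRNAs in each of the Pt comparisons, and many more lower than higher. Why the counts differ was not tested. SEs were derived from the log2 fold change and its F statistic. Alternatives used other scalings, limma 3.58.1, DESeq2 1.42.0, no filter, the compared groups alone, a replicate block and each library left out. Keeping 1 of each pair of names with shared reads (5 pairs, 4 of them identical in sequence) was added after seeing the data. Replicates differed by more than sampling noise (chi-square per degree of freedom at least 8.97) and correlated across miRNAs at 0.987 to 0.994. The floor of 3 reads per group and the 95% intervals cover counting error only. The script was tested on simulated data. All called miRNAs were named. Values of every library were given for the 10 largest changes without overlap and for the phosphate, copper and MIR477 lists, and uncalled miRNAs were named if among the 5 most abundant or a strand partner of a called one. For the difference of response the 5 largest were named. Other miRNAs and ratios singled out were chosen after their values were seen. The miRNAs, lists and tests were chosen with earlier results of these data known.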

Additional observations from a re-analysis of the deposited data

Results flagged for a closer look

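The response to pH 9.5 differed between Pt and Cj in a test of the difference of log2 fold changes (edgeR, adjusted p under 0.05) for 18 miRNAs, 6 higher and 12 lower in Pt. The split was 5 higher and 22 lower both with library sizes from TPM totals and without the 5 most abundant miRNAs, and 13 higher and 16 lower without Pt pH 6.5 replicate 1. The log2 fold change, not the level, was higher in Pt for csi-miRN34 (4.03), csi-miRN23 (2.65), csi-miR394 (1.22), csi-miR396b (0.98), csi-miR164 (0.91) and csi-miR159 (0.56). It was lower in Pt for csi-miRN20 (-2.41), csi-miRN52 (-2.41), csi-miR479 (-2.16), csi-miR473 (-1.93), csi-miR396c (-1.57), csi-miRN50 (-1.53), csi-miR397 (-1.39), csi-miRN47 (-1.37), csi-miR398 (-1.10), csi-miR408 (-0.96), csi-miR167b (-0.76) and csi-miR166d (-0.73). Of these 18, csi-miRN20, csi-miRN47, csi-miR164, csi-miR167b, csi-miR166d, csi-miR396b and csi-miR396c were not called in Pt itself. What lies behind these differences was not tested.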

How the results depend on the processing

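In Pt at pH 9.5 against 6.5 the count of 29 ran from 22 to 30 when 1 library was left out and from 27 to 31 in the other settings, and the summed MIR399 change (1.46) from 1.07 to 1.58. The counts at pH 8.0 against 6.5 (9) were 22 with library sizes from TPM totals and 18 without the 5 most abundant miRNAs, and 6 to 8 with a library left out. At pH 9.5 against 8.0 (17) they were 8 to 14 with a library left out (11 without Pt pH 8.0 replicate 2, 9 without replicate 3, 8 without Pt pH 9.5 replicate 1). For the difference of response (18) they were 13 to 29, with 29 without Pt pH 6.5 replicate 1. The 24-nt difference ran from 2.37 to 3.07. When a library was left out, changes near 0 turned sign for csi-miR166b (-0.10 to 0.06, with 0.06 without Pt pH 6.5 replicate 2, 0.05 without Pt pH 9.5 replicate 1) and csi-miR482a-3p (-0.16 to 0.04, with 0.02, 0.04 and 0.01 without Pt pH 6.5 replicate 3, Pt pH 9.5 replicate 1 or replicate 3). The value of csi-miRN27 (-2.08 to 0.00) reached 0.00 without Pt pH 6.5 replicate 3, which held its single read. The scalings by TPM totals, without the 5 most abundant miRNAs and by the known miRNAs also moved the log2 fold changes. Their median shifts were -0.19, -0.21 and -0.19. The cause of the sign changes was not tested. Among single miRNAs, 53 values fell short of the threshold under an alternative and 18 passed it, while 698 kept their side. With a replicate block 30, 8, 16, 40 and 22 miRNAs were called in Pt at pH 9.5 against 6.5, 8.0 against 6.5, 9.5 against 8.0, in Cj, and for the difference. The block raised the count in Cj from 27 to 40. Deviations of same-numbered libraries correlated above 0.1 in 13 of 45 pairs (-0.286 to 0.440). Between Pt pH 6.5 and 9.5 these correlations were 0.291, 0.012 and 0.137, and 1 of 3 numbers matched itself best. With 3 libraries a group such correlations cannot decide whether the numbers pair the samples, and the main fit used no pairing. Depth limits csi-miRN28, csi-miR827, csi-miR171b and csi-miR399a, which had few reads in at least 1 group.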
